A study of Macaca mulatta with 11 samples.

Results

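Isolated CpG positions with variant-like levels were selected on their measured methylation in 11 rhesus macaques (Macaca mulatta). A position qualified when at least 1 animal lay under 20% methylation and another over 80%. It was left out when it stood in a region of 5 or more positions whose level, over all its reads, differed between animals by more than 50 points. The rule left 53239 of the 3115109 listed positions, or 1.71%, and these are called members here. The word isolated is only the name of this part. Of the members, 1651 had no other listed position within 250 bp, and 77.1% stood in a region of 5 or more positions. Many members had neighbours that differed with them, as described below. The first condition alone held at 54189 positions, and 950 of these were left out with the 324 wide regions among 140730. Because the levels chose the members, every statement on the levels of members below is a description without a test. Tests are given only for the EtOH value and the cohort, which the rule did not use. Read depth is described without a test, since the total count is the denominator of the level.

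The tissue was area 46 of the prefrontal cortex, a part of the frontal lobe tied to working memory. It was taken from every animal while it was alcohol-naïve, so no treated tissue enters any comparison. The animals came from 2 cohorts, with 2 animals in cohort 10 and 9 in cohort 14, and each gave 1 library. The labels give each animal an age, from 5.02 to 5.44, and an EtOH value for 6 months, from 1.69 to 4.31, both without a unit. The animals of cohort 10 had the lowest ages, 5.02 and 5.08, against 5.18 or more in cohort 14, which means that an effect of cohort and an effect of age cannot be told apart. Animals are named by cohort and by a number that only follows the order of the deposited samples. DNA was enriched with SureSelect XT Human Methyl-Seq probes, which were designed on the human genome, so the listed positions are those that such probes caught in macaque DNA. Bulk tissue mixes neurons, glia and other cells, and a middle level cannot be split between cell types or between chromosome copies in these counts.

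In vertebrate DNA most methylation sits on cytosines that are followed by guanine, and the C of the opposite strand in the same CpG usually carries the same mark. Bisulfite turns unmethylated cytosine into a base that is read as T, so a T in the genome itself is read as an unmethylated C. A sequence change that removes the C or the G of a CpG also removes the site of methylation, and methylated CpGs are prone to such changes. An animal can carry such a change on no chromosome copy, on 1 copy or on both copies. Neighbouring CpGs are usually methylated alike, as methylation is set over stretches of DNA. These sentences are background, since no genotype was measured here.

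Positions rather than genes are named, because the genome build of the files is not given in the sources used here. For the same reason no sequence is shown, and whether a member lies in a gene was not analysed here. Libraries held 479979855 to 934657900 reads over the listed positions, a mean of 154.1 to 300.04 per position. The median of the lowest total over the 11 animals was 42 reads at members and 89 at all positions. The libraries of animals 3, 6, 7 and 8 of cohort 14 had the broadest spread of middle levels, and some results are also given without them.

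Members spanned nearly the whole scale. The median range between the highest and the lowest animal was 87.2 points at members and 14.9 points at all positions. To describe how the animals were spread, a low band under 20%, a middle band from 30% to 70% and a high band over 80% were set. At 18363 members, 34.5%, every animal stood in a band, and these are called banded. The other 34876 members had at least 1 animal between the bands. Of the banded members, 17665 used all 3 bands and 698 left the middle empty, so 96.2% of them had animals at low, middle and high levels.

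At members with 3 bands the median level was 3.59% in the low band, 49.2% in the middle band and 93.5% in the high band. The central 50% of levels ran from 1.89% to 6.97% in the low band, from 42.4% to 56.4% in the middle band and from 89.1% to 96.6% in the high band. The low and high levels therefore gathered near the ends of the scale, well inside the limits of 20% and 80%. The mean of the middle animals lay 50.8% of the way from the low mean to the high mean at the median member. In the central 50% of members this place ran from 46.6% to 55.2%, and in the central 90% from 39.6% to 62.8%. In each animal the median middle level lay between 48.9% and 49.7%. The middle band is symmetric about the centre of the scale by definition, which largely fixes these centres, so they carry no finding of their own. The middle band was broader in 4 libraries, with an interquartile range of 14.9 to 15.1 points in animals 3, 6, 7 and 8 of cohort 14. In the other 7 libraries this range was 12.9 to 13.7 points.

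**Figure D1:**
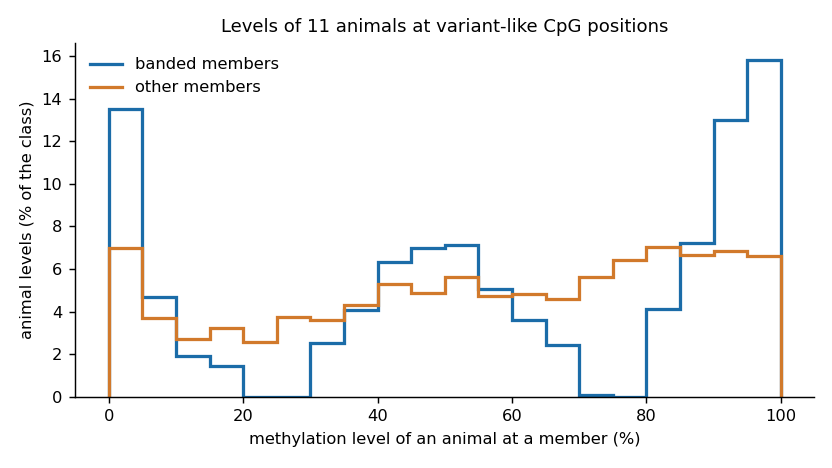
Histogram of the level of each of the 11 animals at members, in percent methylation on the x axis, as a share of the levels of each class on the y axis. Banded members gather near both ends and near the middle, with medians of 3.59%, 49.2% and 93.5% by band, and their gaps at 20% to 30% and 70% to 80% are set by the definition of the bands, while other members fill the gaps.

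A high level was the commoner state at the banded members. A banded member had a mean of 2.37 animals low, 4.21 middle and 4.42 high. More animals were high than low at 11807 banded members, 64.3%, and more were low than high at 4807, 26.2%. Exactly 1 animal was low at 8833 of them, 48.1%, and exactly 1 was high at 3456, 18.8%. The rule asks for at least 1 animal at either end, so it shapes these counts, and it also leaves out every position with middle and high animals alone.

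Among combinations of low, middle and high animals, the most frequent had 1 low, 4 middle and 6 high, at 1314 banded members or 7.16%. Close behind were 1 low, 3 middle and 7 high at 1280 members, 1 low, 2 middle and 8 high at 1226, and 1 low, 5 middle and 5 high at 1060. These commonest combinations were also deeply read, with a median lowest total of 93 to 116 reads. Some combinations were read less deeply. With 1 low, 9 middle and 1 high animal, at 705 banded members or 3.84%, the median lowest total was 33 reads, and with 1 low, 8 middle and 2 high, at 465, it was 42 reads.

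Read depth split the members. Per 1000 listed positions, members fell from 53.1 where the lowest total was 12 to 19 reads to 7.81 where it was 200 or more. Nearly all of that fall was among members that were not banded, which went from 44.5 to 2.19 per 1000. The rate of banded members ran within a narrower range, with 8.60 per 1000 at 12 to 19 reads, 5.22 at 20 to 49, 5.55 at 50 to 99, 6.18 from 100 to under 200 and 5.63 at 200 or more. The share of members that were banded rose over the same classes from 16.2% through 22.1%, 39.9% and 57.1% to 72.0%. The part of counting error in these rates was not tested. PCR copies are not marked, which makes a depth in reads an upper limit on the number of molecules.

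**Figure D2:**
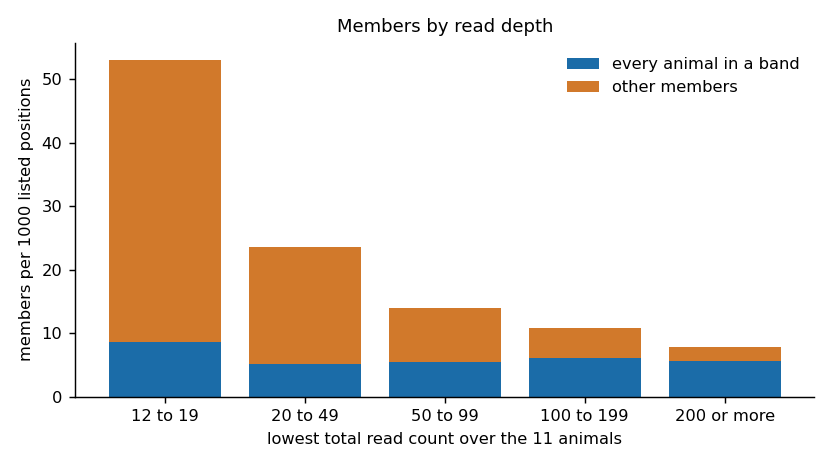
Members per 1000 listed positions (y axis) by the lowest total read count over the 11 animals (x axis), with banded members and other members stacked. The whole bar falls from 53.1 to 7.81 per 1000 while the banded part stays between 5.22 and 8.60.

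Members were most frequent where few other positions were listed nearby. With no other position within 250 bp, 54.96 of 1000 positions were members, with 1 to 4 such positions 41.1, and with 5 to 9 such positions 29.7. The rate was 18.6 with 10 to 19 others, 5.35 with 20 to 39 and 2.14 with 40 or more. Banded members followed the same order, from 14.98 per 1000 with no other position to 0.581 with 40 or more. At positions with at least 100 reads in every animal the order was kept, with banded members at 17.5 and 0.570 per 1000 in these end classes. CpG-dense DNA is mostly unmethylated, and the pooled level of all positions fell over these classes from 77.9% to 17.7%. Density and level moved together, and their parts in the rate of members were not tested. The region condition could act only on positions in runs of 5 or more, and 22.9% of members stood in shorter runs, against 8.83% of all positions.

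Members whose opposite strand was also measured can be compared with it. A position listed 1 bp away is what the opposite strand of the same CpG would be, although in runs of CG it can belong to the next CpG. Such a position existed for 3.70% of members and 3.84% of all positions. Here and below, a neighbour is said to follow a member when its mean level in the animals that are high at the member exceeds that in the animals that are low there by more than 30 points. A neighbour is flat when this difference is within 10 points of 0. Of 401 members with all 3 bands and a partner that is itself a member, the 4 with the highest lowest total are described, at most 1 per chromosome.

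At chromosome 9 position 62410437, read at least 574 times in every animal, animal 4 of cohort 14 was low at 18.1%. Animals 1, 2, 3, 6 and 8 of cohort 14 stood between 50.1% and 61.2%, and the other 5 animals stood between 87.5% and 94.5%. The partner at 62410438 placed the same animals in the same bands, at 4.64%, at 37.5% to 43.7% and at 91.1% to 96.4%. The low and middle animals stood lower at the partner, and the high animals did not.

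Chromosome 12 position 84722694 was mostly unmethylated. The 7 low animals stood between 0.305% and 2.22%, animals 1, 2 and 8 of cohort 14 at 47.7%, 49.3% and 44.9%, and animal 4 of cohort 14 at 93.0%. At the partner 84722693 the same 7 animals stood between 1.18% and 3.75%, the 3 middle animals between 34.8% and 47.2%, and animal 4 at 92.6%. The 2 other positions within 50 bp were highly methylated in the low animals and in the high animal, with means between 95.5% and 97.8%.

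Chromosome 1 position 8419586 had animal 5 of cohort 14 at 9.36%. Animal 1 of cohort 10 and animals 6 and 7 of cohort 14 stood between 59.8% and 60.2%, and the other 7 between 90.6% and 96.4%. Its partner at 8419587 was read as few as 28 times and still gave 8.33%, 59.5% to 63.4% and 85.0% to 98.1% for the same sets of animals. At chromosome 5 position 3345523 animal 5 of cohort 14 stood at 5.41%, animal 9 of cohort 14 at 46.5% and the other 9 between 87.3% and 96.4%. The partner at 3345522 gave 3.35%, 64.9% and 89.9% to 97.9%. Neighbours of this last member differed among themselves, as the 13 within 50 bp had differences from -58.5 to 93.1 points between its high and low animals.

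Over all members, 1296 of 2039 listed partners followed, or 63.6%. For banded members the share was 80.8%, with a median difference of 79.7 points, and for other members 56.4%. With at least 100 reads at the member in every animal, 169 of 173 partners of banded members followed, 97.7% with a 95% Wilson interval of 94.2% to 99.1%. For other members at that depth the share was 93.8%. These intervals cover counting error only, and partners that share a member are not independent. A pair in which both positions are members can enter from each side, which makes the interval too narrow. Of the 173 partners, 158 were members themselves, chosen by the same rule. Over all depths, partners that were no member followed at 29.8% for all members and at 36.4% for banded members. The median partner of a banded member stood at 7.12% in the low animals and at 90.9% in the high animals.

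Pairs of positions 1 bp apart were then counted where neither had a further position 1 bp away. Of 52184 such pairs, 1337 held at least 1 member, and in 494 of them, 36.9%, both positions were members. In 104 pairs both positions were banded, and in 72 of these every animal stood in the same band on both. The 843 pairs with 1 member had a median lowest total of 17 reads, against 29 where both were members. In these 843 pairs the partner followed in 265, 31.4%, and was flat in 294, 34.9%. The positions of a pair differed by a median of 13.5 points in these pairs, 7.44 points where both were members, and 3.82 points over all pairs.

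Beyond the partner, most neighbours of a banded member did not share its differences. Within 2 to 50 bp, 7.86% of the 48342 neighbours of banded members followed and 76.4% were flat. For other members 20.8% of neighbours followed and 50.4% were flat. From 51 to 250 bp the shares that followed were 4.72% for banded and 9.20% for other members. With at least 100 reads in every animal, 3.53% of the neighbours of banded members followed in both distance ranges, and 86.3% of those within 50 bp were flat. At the same depth the neighbours of other members followed in 8.20% and 7.06%.

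Over members of all depths the share that followed fell with distance. For banded members it was 12.9% at 2 bp, 10.9% at 3 to 5 bp, 9.92% at 6 to 10 bp and 7.68% at 11 to 20 bp. It was 7.03% at 21 to 50 bp, 5.58% at 51 to 100 bp and 4.33% beyond 100 bp up to 250 bp. Other members had 32.3% at 2 bp and 7.95% in the farthest of these classes. For banded members with at least 100 reads in every animal the share was 7.14% at 2 bp, 4.35% at 3 to 5 bp and 3.48% at 6 to 10 bp, and from there to 250 bp it stayed between 3.03% and 3.53%. Neighbours that went the opposite way, more than 30 points lower in the high animals, made up 1.43% of those within 50 bp of banded members. Banded members had a median of 4.66% in their low animals and 92.8% in their high animals, whereas their neighbours within 50 bp stood at 91.7% in the low animals and 92.3% in the high animals. The central 50% of these neighbours ran from 80.4% to 96.0% in the low animals and from 84.9% to 95.8% in the high animals. The typical neighbour was thus highly methylated also in animals in which the member was read as unmethylated.

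**Figure D3:**
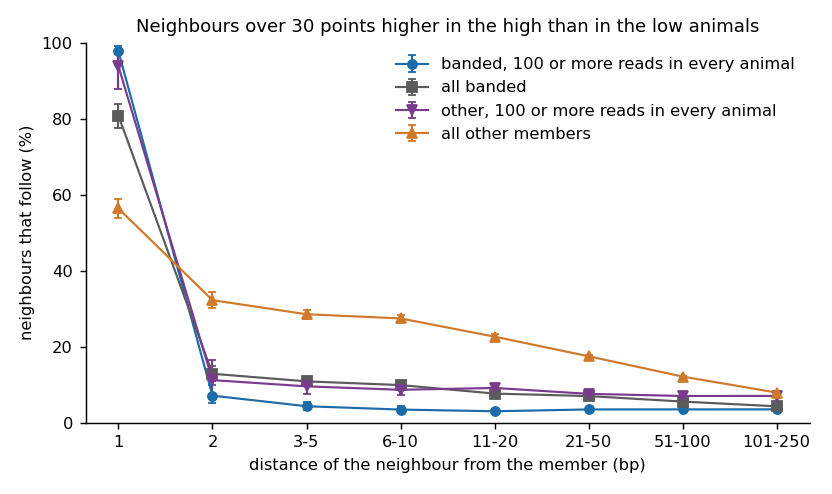
Share of neighbours that follow a member, in percent (y axis), by distance from the member in bp (x axis), with 95% Wilson intervals that cover counting error only. Pairs in which both positions are members can enter from each side. Banded members with at least 100 reads in every animal drop from 97.7% at 1 bp to 7.14% at 2 bp, and other members at the same depth drop from 93.8% to 11.2%. Over all depths the shares of other members are 56.4% and 32.3%.

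Counted per member, 3434 banded members had at least 5 neighbours within 50 bp. None of the neighbours followed at 2569 of them, 74.8%, all were flat at 1299, 37.8%, and all followed at 35, 1.02%. Of the 6123 other members with as many neighbours, none followed at 48.3%, all were flat at 13.5%, and all followed at 2.87%. The ends of this range are shown by 3 members whose neighbours were all flat and 3 whose neighbours all followed, taken as the deepest of 2125 and 211 members.

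At chromosome 3 position 35164263, read at least 866 times in every animal, animal 1 of cohort 14 stood at 2.83%, animals 5 and 9 of cohort 14 at 53.4% and 51.5%, and the other 8 animals between 93.6% and 97.7%. Its 6 neighbours differed by -1.68 to 0.288 points between the high animals and the low animal, and their means stayed between 95.2% and 97.6%. Chromosome 12 position 102796903 had 5 low animals between 3.41% and 7.18%, 4 middle animals between 43.5% and 58.0%, and animals 4 and 7 of cohort 14 at 89.0% and 94.1%. The 5 neighbours differed by -1.82 to 0.94 points. At chromosome 19 position 7377092 animal 9 of cohort 14 stood at 1.24%, 4 animals between 43.6% and 58.1%, and 6 between 95.7% and 97.6%, while 5 neighbours differed by -1.42 to 3.26 points. All 3 members had animals in all 3 bands, beside neighbours that were flat.

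Members whose neighbours all followed looked different. At chromosome 3 position 53445802 levels ran from 16.8% in animal 8 of cohort 14, over 9 animals between 32.8% and 78.6%, to 81.5% in animal 1 of cohort 14. Its 12 neighbours were 31.5 to 64.5 points higher in that high animal. At chromosome 19 position 782985 animal 2 of cohort 14 stood at 4.66%, 8 animals between 42.1% and 77.2%, and 2 at 80.4% and 87.2%, and 8 neighbours were 31.3 to 49.6 points higher in the high animals. Chromosome 13 position 34402218 had animal 3 of cohort 14 at 16.9%, 7 animals between 49.5% and 74.6% and 3 between 81.0% and 82.1%, with 8 neighbours 43.6 to 68.0 points higher. None of these 3 was banded, and at each of them a stretch of CpGs differed together although its region was not left out by the limit of 50 points.

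Of the 698 banded members without a middle animal, 25 had at least 3 animals at either end, and the deepest of these are described. At chromosome 9 position 132247168 animal 1 of cohort 10 and animals 1, 2, 3, 4 and 8 of cohort 14 stood between 4.68% and 8.89%, and the other 5 between 80.2% and 96.7%. Its 4 neighbours within 50 bp were up to 31.8 points higher in the high animals. Chromosome 14 position 58219963 had animals 3, 8 and 9 of cohort 14 between 6.67% and 12.6% and the other 8 between 93.2% and 99.7%. At chromosome 11 position 100000241 animal 1 of cohort 10 and animals 5 and 6 of cohort 14 stood between 1.55% and 6.14%, and the other 8 between 94.3% and 97.8%. The low animals differed between the 3 members, and at the first and the last they came from both cohorts.

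A single animal stood apart from 10 others at the opposite end at 517 members with 1 low and 10 high, and at 84 members with 1 high and 10 low. The median lowest total was 56 reads at the 517 and 15 reads at the 84, against 91 at all banded members, so the deep examples below are not typical of the 84. Among the deepest of the first kind, chromosome 10 position 19048897 stood at 6.67% in animal 8 of cohort 14 and between 94.3% and 97.9% in the others. Chromosome 16 position 77063541 stood at 6.92% in animal 5 of cohort 14 against 92.1% to 96.5%, and its 6 neighbours differed by -2.56 to 1.95 points. Chromosome 3 position 34170624 stood at 5.62% in animal 4 of cohort 14 against 83.1% to 96.6%. Of the second kind, chromosome 15 position 7282259 stood at 93.8% in animal 4 of cohort 14 and between 3.29% and 10.6% in the others. Chromosome 10 position 14750196 stood at 90.5% in animal 2 of cohort 14 against 0.444% to 9.15%. At chromosome 4 position 117030877 animal 2 of cohort 10 stood at 85.9% against 0.498% to 14.2%, and its 5 neighbours were 8.29 to 62.8 points higher in that animal.

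**Figure D4:**
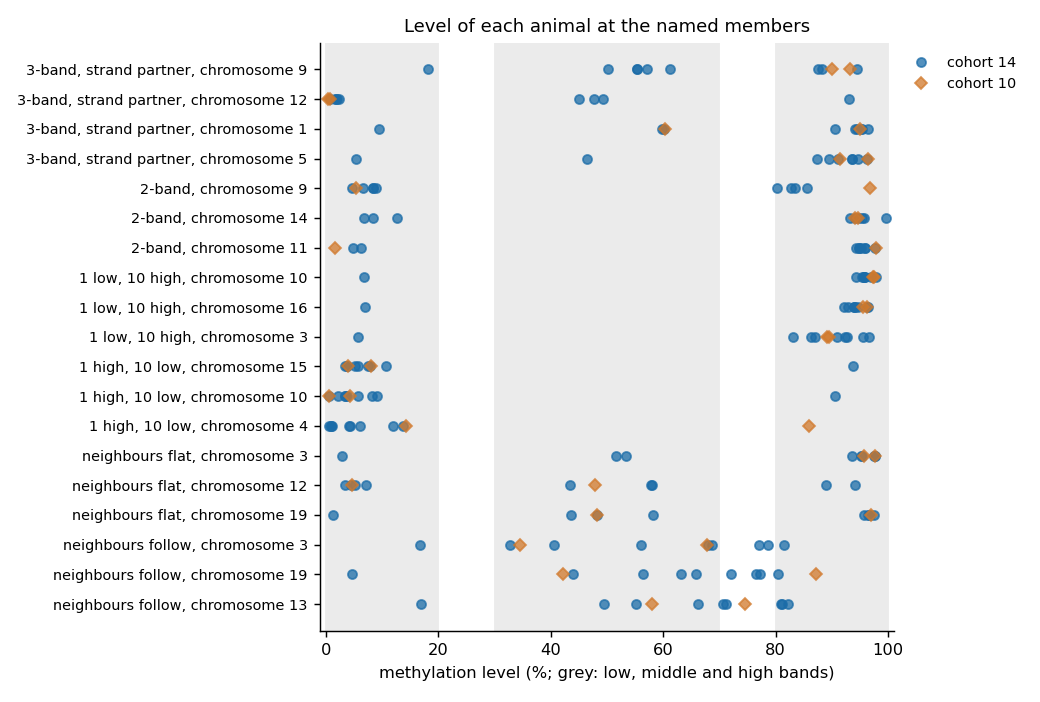
Level of each animal, in percent methylation (x axis), at each named member (rows), with cohort 14 as circles, cohort 10 as diamonds and the 3 bands in grey. Rows with flat neighbours and with a strand partner hold animals in separate groups, while the 3 rows at the bottom, whose neighbours all follow, spread from 4.66% to 87.2% with most animals between 30% and 80%.

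Every animal was the only low animal at many members. Counts of members with a single low animal ran from 1924 in animal 2 of cohort 10 to 3957 in animal 6 of cohort 14, and the 4 highest counts were those of animals 3, 6, 7 and 8 of cohort 14. Counts of members with a single high animal ran from 895 to 2174, and the 4 highest belonged to these same 4 animals, with 1895 or more in each. Over banded members the counts of a single low animal were closer, from 706 to 970. Of the 84 members with 1 high and 10 low animals, the single high animal was 1 of these 4 at 15, 15, 19 and 21. Leaving them out and choosing members anew gave 30830 members, of which 57.1% were banded. Whichever animals are left out, fewer animals make the rule harder to meet and a band in every animal easier. Leaving out 1 animal at a time gave banded shares of 36.6% to 39.25%, against 34.5% with all 11. No other set of 4 animals was left out, so the part of these 4 in the 57.1% was not tested.

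Members near to each other did not always share a pattern. Of 110 pairs of banded members 1 bp apart, 75 placed every animal in the same band, 68.2%, and all 110 went in the same direction. At 2 bp 13 of 20 pairs had the same pattern, 65%, and 95% went in the same direction. At 3 to 10 bp 38.97% of 136 pairs had the same pattern, and at 11 to 50 bp 23.7% of 493 pairs. At 51 to 250 bp the share was 24.6% of 1329 pairs. In 21.6% of the pairs at this last distance the direction was opposite, and in 18 of them the patterns were exact mirrors.

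The reads themselves were fewer where an animal was low. For each animal, the log2 share of its library's reads at a member was centred on the mean of the 11 animals there, and averaged over the members at which it was low or high. The difference, low minus high, was -0.0891 ± 0.0180 on the log2 scale (SD, n = 11), which is a ratio of 0.9401. It was below 0 in 11 of 11 animals, from -0.119 to -0.0578. Depth did not rise steadily from low to high in every animal. In animal 8 of cohort 14 the low, middle and high means were -0.0941, 0.0289 and 0.00947. In animal 5 of cohort 14 they were -0.0432, 0.0440 and 0.0480. Over banded members the difference was -0.0659 ± 0.0174 (SD, n = 11), a ratio of 0.955. No p is given, because the total is also the denominator of the level that set the band and the animals share the members. Without animals 3, 6, 7 and 8 of cohort 14, members chosen anew gave -0.0949 in the 7 animals left.

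**Figure D5:**
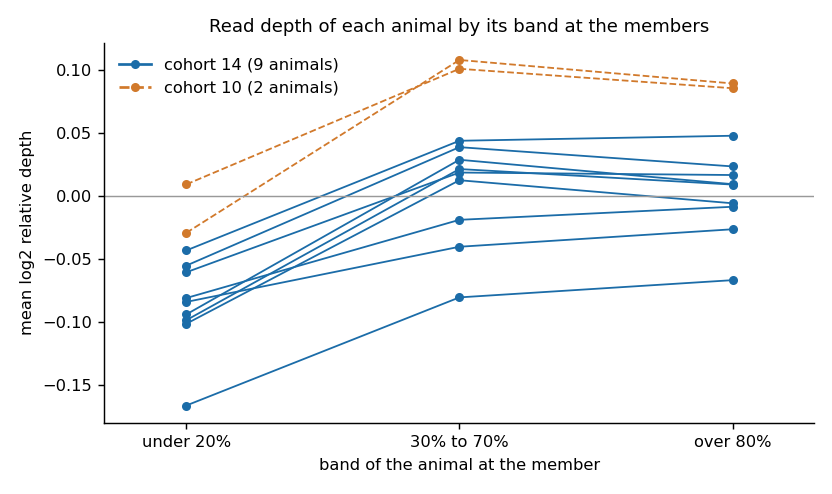
Mean log2 relative read depth of each animal (y axis; 0 is the mean of the 11 animals at a member) over the members at which it was under 20%, from 30% to 70%, or over 80% (x axis), with 1 line per animal. In all 11 lines the low band lies below the high band, with differences from -0.119 to -0.0578.

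Likeness at members was compared within and between the cohorts. Over the 55 pairs of animals, the share of members at which both stood in the same class, under 20%, from 20% to 80% or over 80%, ran from 39.1% to 49.9% with a median of 44.4%. The highest share over all members was that of the pair of cohort 10, but at banded members this pair ranked 6 of 55, at 44.6%, and the highest pair, at 45.6%, joined the cohorts. Apart from the pair of cohort 10, every pair of the same cohort was of cohort 14. The lowest shares were those of pairs among animals 3, 6, 7 and 8 of cohort 14. Pairs of the same cohort had a mean of 43.9%, which is nearly that of cohort 14 alone, and pairs of different cohorts 46.4%. The difference of -2.45 points did not pass the test (exact two-sided permutation of the cohort labels, p = 0.109, with 0.0182 the smallest p that 55 assignments allow). The size of the difference was not stable. It was -0.52 points at banded members (exact permutation p = 0.345) and -0.789 points without animals 3, 6, 7 and 8 of cohort 14 (exact permutation p = 0.190). It was -0.260 points with thresholds of 10% and 90% (exact permutation p = 0.745) and -0.105 points with at least 50 reads in every animal (exact permutation p = 0.764). With at least 100 reads it turned to 0.120 points (exact permutation p = 0.655).

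The series relates the alcohol-naïve tissue to each animal's EtOH value, and no member was called in that comparison. Of the members, 53232 had a pooled level from 5% to 95% and were tested together with all 1874277 such positions, by quasi-binomial logistic regression on the EtOH value, adjusted for cohort. Dispersions were shrunk by limma's empirical Bayes method. After Benjamini-Hochberg adjustment 0 members and 0% of all positions were called, and the smallest adjusted p at a member was 0.588. At an unadjusted p under 0.05 there were 4216 members, 7.92%, against 2.96% of all positions, and for banded members 1846, 10.1%. Where the dispersion of each position was not shrunk, 1493 members, 2.80%, and 3.47% of all positions were under 0.05, so the order turned. Median dispersion at members was 30.4 before and 19.9 after shrinkage, and 6.28 and 6.26 over all positions. By limma on logit levels, which also shrinks variances across positions, 0 members were called. Unadjusted, 4205 members, 7.90%, were under 0.05 there, against 3.49% of all positions. Without animals 3, 6, 7 and 8 of cohort 14, the quasi-binomial model with shrinkage put 10.7% of members and 3.22% of all positions under 0.05 unadjusted.

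The member with the smallest p, at chromosome 5 position 78184058, fell by 36.8 ± 3.29 points (SE, n = 11) per unit of the EtOH value, with an adjusted p of 0.588 by that model. The 6 animals with a value below 3 stood at 96.1%, 95.4%, 58.5%, 95.4%, 49.7% and 92.1%. The 5 animals at 3 or more stood at 51.1%, 56.1%, 52.0%, 40.5% and 6.06%, so the sets overlapped. Next in the same direction were chromosome 2 position 89941443, with a slope of -35.0 ± 5.25 points, and chromosome 1 position 220629722, with -34.3 ± 10.6 points. In the other direction chromosome 4 position 137154300 had a slope of 37.7 ± 6.57 points, chromosome 3 position 58446397 of 39.9 ± 7.75 points and chromosome 13 position 107293123 of 24.2 ± 5.13 points. None of these passed, and the median SE of a slope was 11.9 points at members and 3.17 points over all tested positions.

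Between the cohorts, 11 members differed in the same model with the EtOH value as covariate, 0.0207% of the members tested, where 0.004% of all positions were called. All 11 were higher in cohort 14, as were 0.00389% of all positions, and at all 11 the levels of the cohorts did not overlap. The rule asks for animals far apart, and a call asks for cohorts apart, so the missing overlap is no finding of its own. It was not counted over all called positions. The part of the wide range at members in their share of calls was not tested. Of the 11 called members, 9 were banded. At an unadjusted p under 0.05 there were 2284 members, 4.29%, against 1.46% of all positions. With dispersions left unshrunk these were 874 members, 1.64%, and 1.95% of all positions, so the order turned here too. With shrinkage but without animals 3, 6, 7 and 8 of cohort 14, they were 7.77% of members and 2.06% of all positions. A cohort with 2 animals leaves each call to the levels of those animals.

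At chromosome 9 position 45026912 the animals of cohort 10 stood at 4.08% and 6.36% and those of cohort 14 between 96.3% and 99.1%, a difference of 92.4 ± 0.830 points (SE, n = 11) with an adjusted p of 0.00464 by quasi-binomial regression. Chromosome 1 position 128824381 stood at 14.3% in both animals of cohort 10 and between 74.5% and 93.9% in cohort 14, with an adjusted p of 0.0191 in that regression. At each of the remaining 9 members, 1 animal of cohort 10 stood under 20% and the other between 36.2% and 53.9%. Chromosome 9 position 132552314 stood at 42.5% and 6.99% in cohort 10 against 90.8% to 99.4%. Chromosome 16 positions 76050992 and 76051006, which are near to each other, stood at 9.71% and 52.5% and at 1.42% and 49.4% in the animals of cohort 10, against 90.3% to 98.2% and 94.4% to 99.5% in cohort 14. The other called members were chromosome 1 position 72027070, chromosome 2 position 114759486, chromosome 4 position 137490467, chromosome 6 positions 1409406 and 73147768, and chromosome 13 position 104794868.

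The members nearest to a call in the other direction did not pass. Chromosome 4 position 117030877, described above, had a difference of -48.5 ± 12.7 points and an adjusted p of 0.136, with cohort 10 at 14.2% and 85.9% and cohort 14 from 0.498% to 13.7%. Chromosome 3 position 2040152 stood at 84.1% and 85.6% in cohort 10 and between 17.9% and 50% in cohort 14, with an adjusted p of 0.358. Chromosome 17 position 94310200 stood at 81.3% and 78.8% against 0.877% to 45.2%, with an adjusted p of 0.662, all by quasi-binomial regression with limma's shrinkage. The count of 11 calls moved with some single libraries and not with others. Without animal 1 of cohort 10 it was 18 members, 0.0338%, where 0.0239% of all positions were called, and without animal 2 of cohort 10 it was 6 members, 0.0113% against 0.00854%. In both of these fits the share of members was much closer to that of all positions than with all animals. Without animals 1, 4, 7 and 8 of cohort 14 in turn it was 7, 4, 6 and 4 members, where 66, 50, 70 and 65 positions were called in all. Without animals 2, 3, 5, 6 and 9 of cohort 14 in turn it was 9, 9, 9, 10 and 11 members. Positions called in all were then 74, 77, 71, 82 and 87. Over these fits without an animal of cohort 14, 0.00752% to 0.0207% of members and 0.00267% to 0.00465% of all positions were called. The count of members was 0 of 3 positions called without animals 3, 6, 7 and 8 of cohort 14 together, 1 of 2 by limma on logit levels, and 1 of 2 where the dispersion was not shrunk.

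The thresholds cut through a continuous range. Just inside, chromosome 1 position 218849131 had its lowest animal just under 20%, with others from 20.4% to 88.5%, and chromosome 10 position 25097211 had its highest animal just over 80%, with others from 0.369% to 51.1%. Just outside, chromosome 1 position 248184 had a lowest animal at 20% and chromosome 1 position 562133 a highest animal at 80%. The widest region kept had a range of 49.99 points and the narrowest one left out 50.01 points.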

How the data were processed

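Methylation was measured by capture bisulfite sequencing in 11 libraries, 1 per animal. The authors deposited 2 tables of whole-number counts per CpG position, methylated reads and total reads, not normalized. FastQC and Bismark are named in the submitters' processing notes. Versions, settings and genome build were not given in the sources used here. Both tables also held 5 columns that matched no sample label, which were not used. No methylated or unmethylated count was below 1, and no total was below 12, so 1 may have been added to each. No label states such a step, and an alternative took it away.

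The level was 100 times methylated over total reads. Positions at most 200 bp apart were joined, cut every 1000 bp from the start of the run, and kept as regions with at least 5 positions. All listed positions passed a coverage minimum of 10. Positions with a pooled level from 5% to 95% were fitted by quasi-binomial logistic regression on the EtOH value and cohort, with dispersions shrunk by limma's empirical Bayes method and Benjamini-Hochberg adjustment at 0.05 over 1874277 positions. Slopes and SEs in points are least-squares values for the same terms. R's own functions gave the same fit. Simulated data drew every position around its pooled level with the same spread setting and without bands. Without change it called 0 positions, with 4.78% at an unadjusted p under 0.05. With 50 positions changed at each of 4 logit slopes per unit of the EtOH value, it called 0% at 0.5, 0% at 1, 6% at 1.5 and 8% at 2. Few changes of this size would thus be called in such data. Members had a median dispersion of 30.4, against 6.28 over all positions, so the simulation does not show how the test behaves at members.

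Members and lists were chosen with earlier results of these data known. Within each class the members named are the deepest, at most 1 per chromosome, or those with the 3 smallest p-values in each direction, or those nearest to a threshold. The member called with the EtOH value as 2 classes, in the closing section, was chosen after its value was seen. The animals are separate, so p-values rest on the spread between animals. In the regression the spread at a position is drawn toward that of all tested positions. Median dispersion at members went from 30.4 to 19.9 by this step, so these p-values understate the spread at many members. A permutation test of read depth was planned and is left out of the text, because totals enter the levels. Reads that are PCR copies are not marked. Alternatives changed thresholds, coverage, regions, libraries, the model and the definition of a neighbour that follows. The tools were limma 3.58.1 in R 4.3.3, and matplotlib 3.10.9, pandas 2.3.3, scipy 1.17.1 and numpy 2.4.6 in Python 3.11.15.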

Additional observations from a re-analysis of the deposited data

Results flagged for a closer look

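No single animal of cohort 14 was marked as far from the rest by a gap screen. The screen compared the gap between the highest or lowest animal and its neighbour with the whole range, in 17 quantities of the 9 animals of cohort 14, and marked 0 of them. Cohort 10, with 2 animals, was not screened. Such a gap does not open where several animals lie apart together. The screen therefore could not mark animals 3, 6, 7 and 8 of cohort 14, whose libraries are set apart above.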

How the results depend on the processing

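No paired analysis was possible because each animal gave 1 library and the animal numbers only follow the order of the samples. Depth limits the members most: at a coverage minimum of 50 there were 24091, and at 100 there were 13688. Thresholds of 10% and 90% gave 27441 members, and leaving out animals 3, 6, 7 and 8 of cohort 14 gave 30830. Without 1 animal at a time the number ran from 47383 to 50328.

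The banded share was 17.64% with thresholds of 10% and 90%, 33.3% with methylated counts lowered by 1 and totals by 2, 52.74% and 62.46% at coverage minimums of 50 and 100, 35.32% with regions dropped above 30 points, 57.11% without the 4 animals, 10.69% with a middle band of 40% to 60%, and 36.6% to 39.25% without 1 animal. In the same order, strand partners followed at 86.87%, 57.95%, 92.14% and 98.68%, and at 80.96% without the 4 animals. Their share was 68.91% and 53.26% with limits of 20 and 50 points for a neighbour that follows, 80.8% for banded members and 62.44% to 67.49% without 1 animal.

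Neighbours within 50 bp followed at 7.915%, 18.05%, 6.828%, 4.989% and 12.64% under the first 5 of these settings, 18.45% with no region dropped and 10.15% without the 4 animals. They followed at 22.37% and 7.831% with limits of 20 and 50 points, at 7.863% for banded members and at 14.64% to 16.56% without 1 animal. From 51 to 250 bp the same settings gave 5.183%, 7.966%, 5.139%, 4.258%, 5.222%, 9.57%, 5.962%, 12.74%, 2.898% and 4.719%, and 6.951% to 7.895% without 1 animal. In each of these settings partners followed more often than neighbours within 50 bp, and those more often than neighbours from 51 to 250 bp.

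The depth difference stayed below 0 under every alternative, from -0.0972 to -0.0490. The cohort difference in likeness shrank to -0.7892 points without the 4 animals, -0.2601 with thresholds of 10% and 90% and -0.1053 at a coverage minimum of 50, and turned to 0.1204 at 100. It ran from -2.667 to -2.047 without 1 animal of cohort 14. Without an animal of cohort 10 it had no value, as no pair of that cohort was left.

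With the EtOH value as 2 classes, below 3 against 3 or more, 1 of 53232 members was called, and 9 of all 1874277 positions. At that member, chromosome 1 position 16452190, the animals below 3 stood at 4.44%, 50%, 55.4%, 42.1%, 47.2% and 43.0%, and those at 3 or more between 90.9% and 94.0% (adjusted p = 0.0436 by quasi-binomial regression with limma's shrinkage). The other alternatives gave 0 members. Between the cohorts, members were 1 of the 2 positions called by limma on logit levels, and 1 of 2 without shrinkage. In each, that is 0.00188% of members and 0.000107% of all positions tested. Members were 2 of 60 with no limit on the pooled level, 0.00376% of members against 0.00193% of all positions. Without the 4 animals they were 0 of 3, where 0.000161% of all positions were called. They were 11 of 64 with methylated counts lowered by 1 and totals by 2, 0.0207% against 0.00373%. With positions 1 bp apart pooled they were 11 of 76, 0.0209% against 0.00413%. At a coverage minimum of 50 they were 10 of 67, 0.0416% against 0.0053%. Without 1 animal they were 4 to 18, where 50 to 448 positions were called. For each of these changes the cause was not tested.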

Other observations

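Members stood on all 20 chromosomes. Chromosomes 3 and 17 held the most members per 1000 listed positions, 20.6 each, and chromosomes 16 and 19 the fewest, 14.2 and 14.5. Banded members ran from 4.09 per 1000 on chromosome 19 to 7.48 on chromosome 3. No test was made of these rates, which move with read depth and with the density of listed positions.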
